A study of Mus musculus with 3 samples.

Results

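The untreated library of mouse gastrocnemius endothelium was set against the library from sedentary mice. A barcode was kept when it held 300 or more genes and when no more than 10% of its UMIs (unique molecular identifiers, each marking 1 captured RNA molecule) lay on mitochondrial genes. That left 4326 untreated and 4016 sedentary barcodes, 8342 of the 11554 kept in the series. The study sorted living endothelial cells (CD31+, CD45-, negative for the dead-cell dye SYTOX blue) from gastrocnemius, a calf muscle, and made 10x Chromium 3' libraries from C57BL/6N mice, with 1 library in each of 3 groups. No mutant allele or transgene is named for any group. The treatment label of the untreated library reads "no treatment" and its title names only muscle cells, while the sedentary mice lived alone in a cage with no wheel. The running library, from mice housed alone with a wheel for 14 days, is set beside the others as values only. Housing of the untreated mice, ages, the number of animals pooled and preparation dates are not given in the sources used here, so batch and housing cannot be told apart. With 1 library a side there is no replicate check: every interval below is an exact 95% interval for counting error, and no test was made.

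Endothelial cells line the blood vessels, and in skeletal muscle most of them form capillaries that pass oxygen, glucose and fatty acids to the fibres. Arterial cells carry high Notch activity and gap junction connexins, whereas venous cells carry the transcription factor COUP-TFII (Nr2f2), von Willebrand factor and adhesion molecules that slow leukocytes. These cells also respond within minutes to shear, cytokines, hormones and enzymatic tissue digestion, so their transcripts carry a record of the animal and of the handling of the sample.

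The kept barcodes held 7943537 untreated and 5567882 sedentary UMIs, with medians of 1586 and 1135.5 UMIs per barcode, against 1532 in the running library. Markers shared by all endothelium had a UMI in 99.8% of untreated and 100% of sedentary barcodes, while the 9 leukocyte markers summed to 3.02 CPM untreated (24 UMIs in 11 barcodes) and 2.16 sedentary (12 UMIs in 8 barcodes), with Ptprc, Cd3e and S100a9 at 0 UMIs in both. Xist had 0 UMIs in all 3 libraries, and the Y-linked genes Ddx3y (106 and 93.6 CPM, the UMIs scaled to a library of 1000000), Uty (17.6 and 17.6), Eif2s3y (44.2 and 49.9) and Kdm5d (11.1 and 14.4) were present in both. Nnt, which differs between C57BL/6 substrains, was at 19.3 untreated and 14.9 sedentary CPM, a log2 ratio of 0.37 (-0.03 to 0.77). Erythrocyte markers stood apart: the summed level of 5 genes was 174 CPM untreated, 5922 sedentary and 5108 running, and at least 1 such UMI was in 3.72%, 64.4% and 61.7% of barcodes. The part of this red cell RNA in the differences below was not tested beyond leaving out the barcodes that held it. Mural markers summed to 292 untreated and 176 sedentary CPM, lymphatic markers to 305 and 181, muscle fibre markers to 64.3 and 67.0, and fibroblast markers to 14.2 and 10.4. The 2 libraries shared 32 barcode sequences, 0.797% of the smaller library.

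The 2 libraries differed in 393 genes (4.26% of those compared) by a factor of 2 or more. Of 9229 genes with at least 100 UMIs over both, 256 (2.77%) were at least 2-fold higher in the untreated library and 137 (1.48%) at least 2-fold lower. With a limit of 25% above the lower of the values, 16.9% were higher and 25.7% lower. The SD of the log2 ratios over genes was 0.497. Between the running and sedentary libraries 43 of 8902 genes were 2-fold higher (0.483%) and 23 lower (0.258%), with an SD of 0.285. Among genes with at least 1000 UMIs, where counting error is small, the SD was 0.493 for untreated over sedentary and 0.219 for running over sedentary. Against the running library the untreated library had 226 higher (2.42%) and 148 lower genes (1.58%) of 9356, a ratio that shares the untreated library with the first. Higher genes made up 65.1% of the calls, and 76.0% when TMM factors replaced library totals. In barcodes without any erythrocyte UMI (4165 untreated, 1430 sedentary) 269 genes were lower and 363 higher, and these included 110 of the 137 and 212 of the 256. The genes compared were still those with 100 UMIs over all kept barcodes, so counting error is larger in this smaller set. The filter left out 2586 sedentary but 161 untreated barcodes. Whether it changed the depth or the mix of cells on 1 side was not tested.

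**Figure D1:**
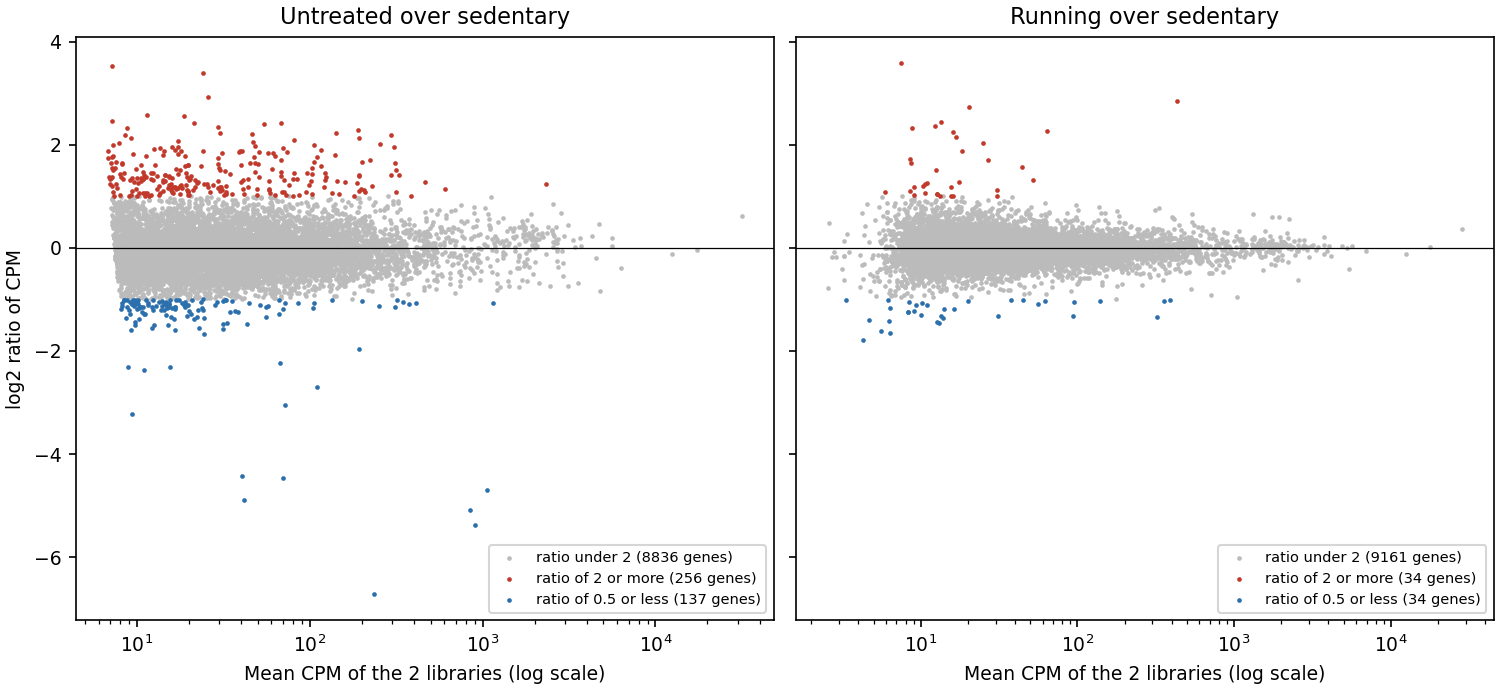
Each point is 1 of the 9229 genes with at least 100 UMIs over the untreated and sedentary libraries; the x axis is the mean CPM of the 2 libraries of the panel (log scale) and the y axis the log2 ratio of CPM. In the left panel 256 genes lie at a ratio of 2 or more and 137 at 0.5 or less; in the right panel, running over sedentary for the same genes, 34 and 34.

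Among genes with at least 200 UMIs, the highest ratios were those of Fam107a, Cd1d1 and Tnfrsf1b. Fam107a, which encodes an actin-associated protein, was at 45.4 CPM untreated, 5.93 sedentary and 4.05 running, a log2 ratio of 2.92 (2.42 to 3.50) for untreated over sedentary. Cd1d1, which encodes a lipid-presenting relative of class I antigens, was at 32.2, 5.39 and 8.27 CPM (2.56, 2.03 to 3.18). Tnfrsf1b, the gene of TNF receptor 2, was at 114, 21.2 and 22.6 CPM (2.43, 2.15 to 2.72). Without barcodes with an erythrocyte UMI the ratio of Fam107a was 3.45 and that of Cd1d1 1.67, and after thinning that of Fam107a was 2.31. In these, as in the other 9 genes of highest ratio, the untreated value stood above both others. Net1, which encodes an exchange factor that activates RhoA, was at 315, 64.7 and 51.8 CPM (2.29, 2.13 to 2.45), and 33.7% of untreated barcodes held a UMI of it. Trim25, a ubiquitin ligase gene of antiviral RNA sensing, was at 481, 106 and 96.5 CPM (2.18, 2.06 to 2.31). Unc5b, the gene of a netrin receptor of arterial and tip cells, was at 408, 100.2 and 88.8 CPM (2.02, 1.89 to 2.16).

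The remaining genes among the 12 highest were less abundant. Klhl21, which encodes an adaptor of a cullin ubiquitin ligase, had a log2 ratio of 2.34. Il17rd, which encodes a brake on FGF signalling, was at 168 CPM untreated and 42.4 in each of the other libraries (1.99). Fam214b (2.05), the cell polarity gene Epb41l5 (1.97) and Fam174b (1.96) followed. The non-coding gene Gdap10 had a ratio of 2.23, but it overlaps Nampt over 5033 bases, so part of its UMIs may belong to Nampt. Fam107a lies on chromosome 14 from 8296274 to 8318023, Tnfrsf1b on chromosome 4 from 145213463 to 145246870, Net1 on chromosome 13 from 3882018 to 3918220 and Trim25 on chromosome 11 from 88999376 to 89020293 (GRCm38).

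**Figure D2:**
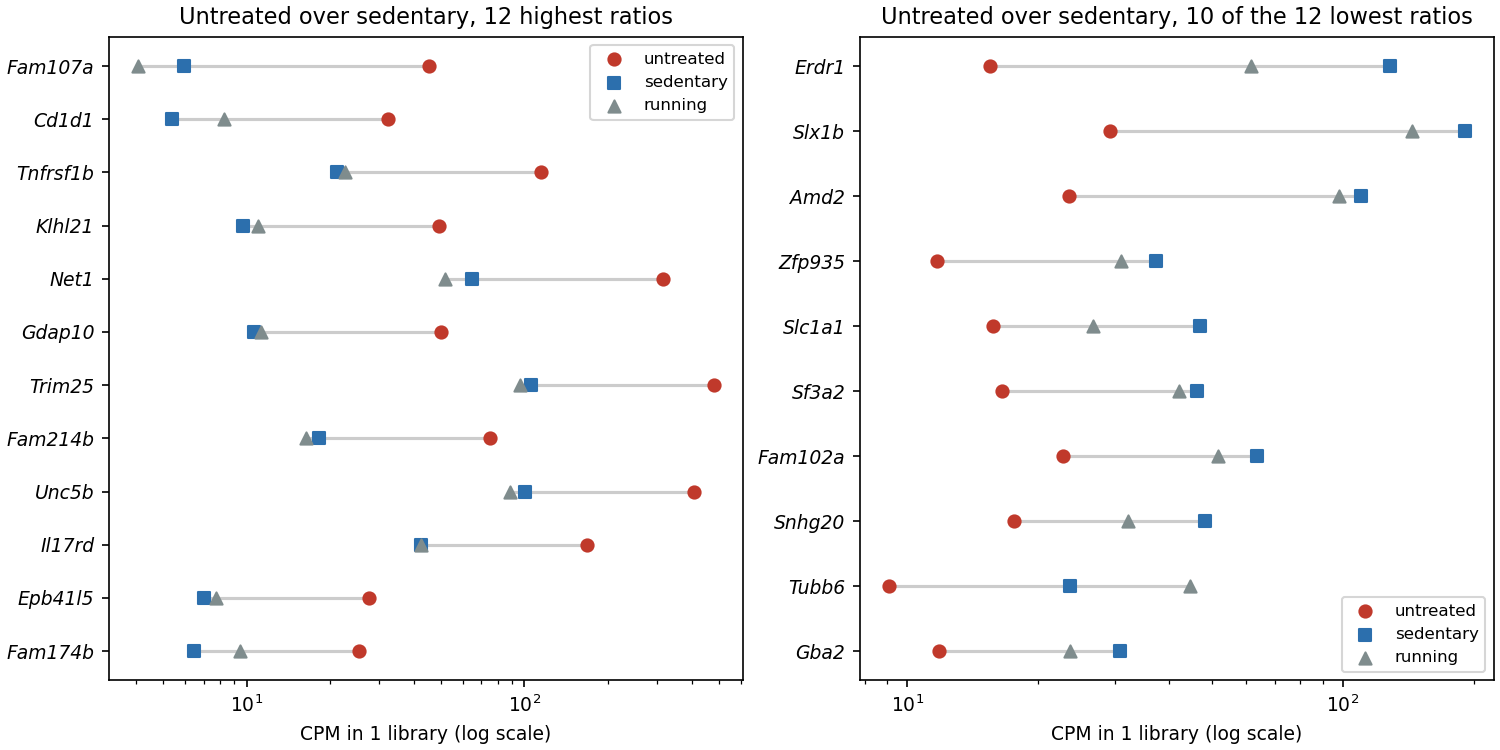
CPM (log scale) of the 12 genes with the highest and of 10 of the 12 with the lowest untreated over sedentary ratio, with 1 symbol per library and a grey line over their range. The genes were chosen by that ratio; in the left panel each running value lies below the untreated value, as Il17rd does at 42.4 against 168 CPM, and in the right panel each lies above it.

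The lowest ratios included those of Erdr1, Slx1b and Amd2. Erdr1, annotated on chromosome Y from 90784738 to 90816464, was at 15.5 CPM untreated, 129 sedentary and 61.8 running, a log2 ratio of -3.05 (-3.34 to -2.78). Slx1b, which encodes the catalytic subunit of a DNA repair nuclease, was at 29.2, 191 and 144 CPM (-2.71, -2.92 to -2.50). In both the running value lay between the others. Amd2, a near-identical copy of the polyamine synthesis gene Amd1, was at 23.5, 110 and 98.4 CPM (-2.22), whereas Amd1 was at 55.9, 70.0 and 55.5 CPM (-0.33). Reads can be split between such copies, so the ratio of either is uncertain. Their sum, looked at after the values were seen, was 79.4 untreated, 180 sedentary and 154 running CPM.

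Further genes of low ratio, from -1.67 to -1.38, were Zfp935 (-1.67), the glutamate transporter gene Slc1a1 (-1.58), the splicing factor gene Sf3a2 (-1.49), Fam102a (-1.48), the non-coding gene Snhg20 (-1.45), the tubulin gene Tubb6 (-1.38) and the glucosylceramidase gene Gba2 (-1.38). A single barcode gave 16.8% of the sedentary Zfp935 UMIs. The 24 genes of highest and lowest ratio all kept their direction and stayed past 2-fold under each of the 13 alternatives of scaling, filtering and weighting.

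In absolute terms the widest gains included those of Malat1, Fos and Jun. Malat1, a nuclear long non-coding RNA, was at 38305 CPM untreated, 24957 sedentary and 31982 running (0.62). Fos was at 3269, 1381 and 2104 CPM (1.24, 1.21 to 1.28) and Jun at 3279, 1808 and 2678 CPM (0.86). For these 3 genes the running value lay between the other libraries. Tpt1, a growth-related gene, was at 3496, 2200 and 2265 CPM (0.67), the elongation factor gene Eef1a1 had a ratio of 0.43 and the ribosomal gene Fau one of 0.40.

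The widest losses in CPM included those of Aqp1, Igfbp7 and Ly6c1. Aqp1, the gene of the water channel aquaporin 1, was at 3448 CPM untreated, 6138 sedentary and 4630 running (-0.83, -0.85 to -0.81). Igfbp7, which encodes a secreted insulin-like growth factor binding protein, was at 2732, 4376 and 3946 CPM (-0.68). Ly6c1, a surface antigen gene of microvessels, was at 1838, 3087 and 1991 CPM (-0.75), so here the running library stood with the untreated one. Egfl7, which encodes a matrix protein secreted by endothelium, was at 1622, 2609 and 2484 CPM (-0.69), Actb at 2386, 3467 and 4002 (-0.54), and the fatty acid binding protein gene Fabp4 at 11962, 12927 and 11959 (-0.11).

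To ask whether these differences ran through the vessel types, barcodes were split by single genes. Those with a UMI of Gja5, Gja4 or Sema3g were called arterial, those with a UMI of Vwf or Nr2f2 venous, those with both kinds were kept apart, and those with neither are the remaining barcodes. Most vessel genes that the split had not used followed it. Hey1, a Notch target gene of arteries, was at 440 CPM in arterial, 46.6 in venous and 104 in remaining untreated barcodes, and 343, 71.5 and 108 in the sedentary library. Selp, the gene of P-selectin on venous cells, was at 2.10, 418 and 9.80 CPM untreated and 11.9, 159 and 6.19 sedentary.

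Arterial barcodes made up 717 of 4326 in the untreated library (16.6%, Clopper-Pearson 15.5% to 17.7%) and 465 of 4016 in the sedentary (11.6%, 10.6% to 12.6%). Venous barcodes made up 883 (20.4%) and 640 (15.9%), and barcodes with both kinds 213 and 159. The untreated share was higher by 5.0 percentage points for arterial (3.49 to 6.50) and 4.48 for venous barcodes (2.81 to 6.14). Depth and the rule's own genes move these shares. After each barcode was thinned to 1000 UMIs, which left out 777 untreated and 1800 sedentary barcodes, the differences were 2.62 (0.777 to 4.42) and 2.09 points (0.116 to 4.02). Gja5, which encodes connexin 40, was at 132 CPM untreated, 30.9 sedentary and 33.4 running (log2 ratio 2.09, 1.86 to 2.33), and Nr2f2 at 137, 69.0 and 71.0 (0.99), while Gja4 was at 71.6, 85.7 and 82.7 (-0.26), Sema3g at 114, 93.0 and 80.8 (0.30) and Vwf at 245, 170 and 149 (0.53). The Gja4 ratio kept its sign under 11 and the Sema3g ratio under 12 of 13 alternatives. With classes set without Gja5 and Nr2f2 and barcodes thinned, an alternative chosen after the data were seen, the share differences were 0.383 (-1.37 to 2.09) and 0.564 points (-1.16 to 2.25). Both intervals then included 0.

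Most of the called genes differed in the same direction in all 3 classes. Of the 197 higher genes with at least 20 UMIs in each class, 176 (89.3%) were at least 1.5-fold higher in arterial, venous and remaining barcodes alike. Of 105 such lower genes 87 (82.9%) were at least 1.5-fold lower in each. Taken each on its own, the classes had 3.03% of 3659 genes at least 2-fold higher and 1.04% lower in arterial, 4.06% and 2.36% of 4783 in venous, and 2.67% and 1.14% of 1835 in barcodes with both kinds. Over all 8420 genes with those UMIs, 3.42% were at least 1.5-fold higher and 3.27% at least 1.5-fold lower in all 3 classes. Because the called genes were picked on the sum of these barcodes, the classes were also read apart. Of 165 genes 2-fold higher in the remaining barcodes (2.3% of the genes compared there were higher and 1.54% lower), 149 (90.3%) were at least 1.5-fold higher in the arterial and 150 (90.9%) in the venous barcodes, which share no cell with them. Over all 7335 genes these shares were 10.9% and 10.8%. Of 111 genes 2-fold lower in the remaining barcodes, 82 (73.9%) were at least 1.5-fold lower in arterial and 87 (78.4%) in venous barcodes. Of all genes 12.9% and 16.4% were. The classes come from the same 2 libraries, so whatever separates the libraries as a whole is shared by all 3.

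**Figure D3:**
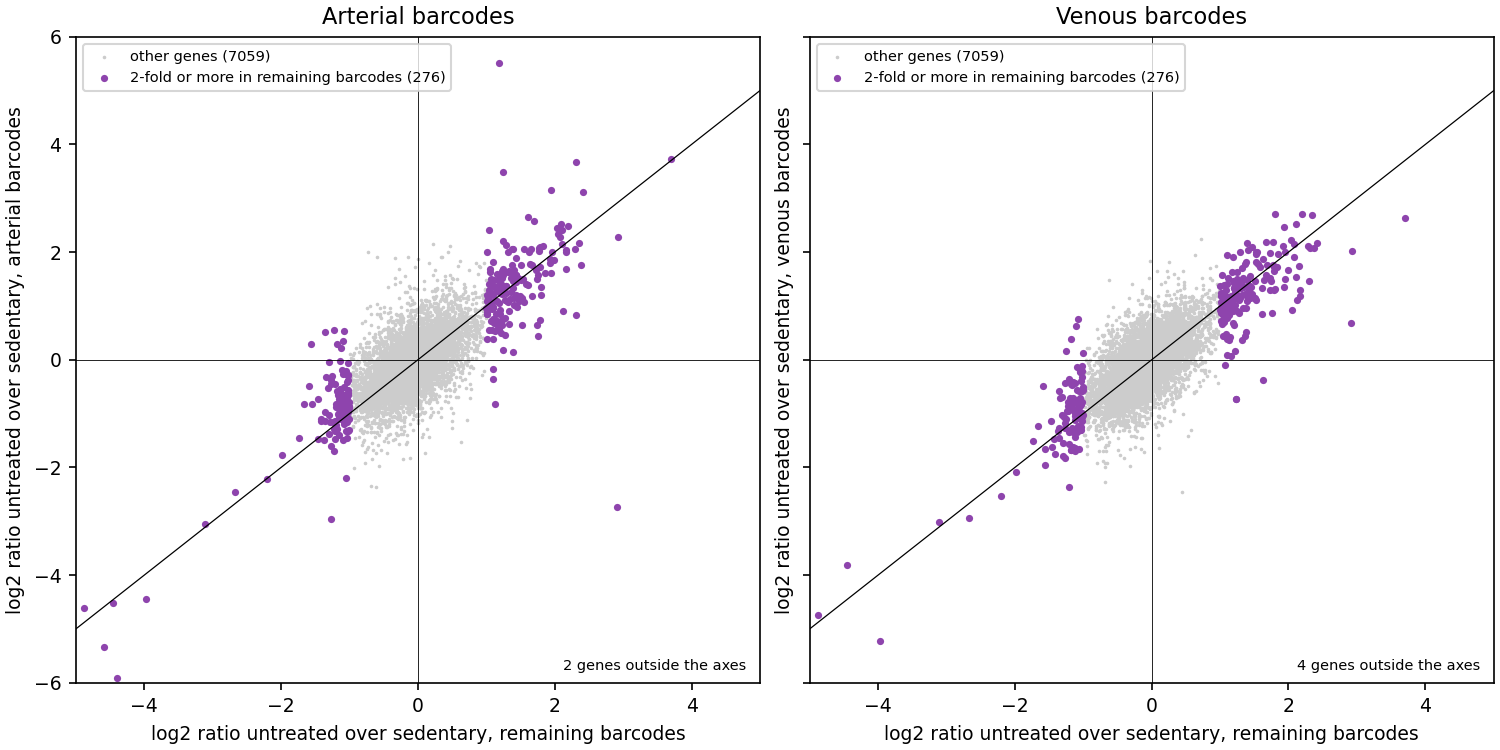
Log2 ratio of untreated over sedentary in arterial (left) and venous barcodes (right) against the same ratio in the remaining barcodes, with 1 point per gene and a line of equal ratios. Purple points are the 276 genes at least 2-fold higher or lower in the remaining barcodes. Of these, 140 of the 165 higher ones and 69 of the 111 lower ones were at least 1.5-fold in the same direction in both other classes. Over all 7335 genes, 4.88% were at least 1.5-fold higher and 5.36% at least 1.5-fold lower in both.

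Trim25 and Erdr1 were high and low in each class. Trim25 was at 403 CPM untreated and 96.2 sedentary in arterial, 444 and 102 in venous, and 537 and 110 in remaining barcodes, with log2 ratios of 2.06, 2.12 and 2.29. Net1 had ratios of 2.15, 2.52 and 2.10, Tnfrsf1b 2.48, 2.71 and 2.20, and Il17rd 1.87, 2.11 and 1.93. Among the lower genes Erdr1 was at 15.4 and 130 CPM in arterial, 14.9 and 122 in venous and 15.1 and 132 in remaining barcodes, with ratios of -3.05, -3.00 and -3.11. Slx1b had ratios of -2.46, -2.93 and -2.67.

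Some genes had unequal ratios in the classes, and these were read after the values were seen. Unc5b had ratios of 2.33 in arterial and 2.04 in remaining but 0.92 in venous barcodes, where it was at 107 CPM untreated and 56.2 sedentary. Col8a1, which encodes a short-chain collagen of vessel walls, was at 689 and 199 CPM in arterial, 89.5 and 28.8 in remaining, and 26.9 and 34.9 in venous barcodes (1.79, 1.63 and -0.37). Btnl9 followed the same order, at 445 and 187 CPM in arterial, 249 and 119 in remaining, and 56.3 and 60.5 in venous barcodes. Mgp, the gene of matrix Gla protein, an inhibitor of calcification and BMP signalling, was higher in arterial (309 against 148 CPM) and venous barcodes (149 against 60.5) but not in the remaining ones (13.8 against 15.2). Cpe, a peptide-processing carboxypeptidase gene on the venous list, had ratios of 0.16, 1.52 and -0.03. Of the 39 called genes that missed the limit in at least 1 class, 5 were past it in 1 class and 34 in 2.

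The difference of ratios between classes was computed for 5440 genes with at least 50 UMIs in arterial and in remaining barcodes. Its median was 0.02, the SD 0.358, and the interval lay above 0 for 219 genes and below for 199. The highest arterial minus remaining differences were those of the calcium pump gene Atp2a3 (2.13, 1.13 to 3.24), the contractile genes Tagln (1.96) and Myl9 (1.78), the nuclear export gene Xpo1 (1.64) and Emp2 (1.62). Atp2a3 was at 62.9 CPM untreated and 21.1 sedentary in arterial barcodes and 9.54 and 14.2 in the remaining ones. The Tagln difference, with an interval of 0.76 to 3.47, rests on 7 sedentary UMIs in arterial barcodes. Tagln and Myl9 also belong to mural cells, whose markers summed to 292 and 176 CPM over all barcodes, and the part of those cells in the differences was not tested. The lowest were Zfp935 (-1.69), Ccdc80 (-1.65), Pigx (-1.49), the linker histone gene Hist1h1e (-1.26) and the protease gene Prss23 (-1.26). Class assignment depends on depth and on the rule's own genes. Its part in these differences, and in the venous ones below, was not tested beyond alternative class rules and thinning.

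Between venous and remaining barcodes 6558 genes could be set side by side, with an SD of 0.402 and with 388 intervals above and 552 below 0. Among the highest differences were those of Emp2 (1.85), the acetyltransferase gene Naa30 (1.73), the transcription factor gene Tcf7l1 (1.70) and Slco2a1 (1.68), which encodes a prostaglandin transporter. Slco2a1 was at 165 CPM untreated and 68.1 sedentary in venous barcodes and at 11.4 and 15.2 in the remaining ones. The lowest were Col8a1 (-2.0), the metallothionein gene Mt2 (-1.98), Rcbtb2 (-1.88), the retinol-binding protein gene Rbp7 (-1.58) and Igfbp5 (-1.54). Rbp7 was at 48.1 and 233 CPM in venous, 474 and 828 in arterial and 169 and 273 in remaining barcodes, lower in the untreated library in each class and by the most in venous ones.

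Genes were then read by function in 37 lists, each described by its median log2 ratio beside the -0.08 of all 9229 genes, and by the members past that limit of 25% beside the 16.9% and 25.7% of all genes. Glucocorticoid target genes had a median of 0.54, with 8 of 13 compared members higher and 0 lower. Glucocorticoids are adrenal hormones released in a daily rhythm and under stress, and their receptor binds the hormone and then DNA. Tsc22d3, which encodes the anti-inflammatory mediator GILZ, was at 264 CPM untreated, 110 sedentary and 102 running (1.26). Zbtb16, a transcription factor gene, was at 10.6, 4.67 and 3.71 CPM (1.17), Sgk1, a kinase gene of sodium transport, at 573, 354 and 402 (0.69), and Fkbp5, a receptor co-chaperone gene, had a ratio of 0.69. Each stood higher in the untreated than in both other libraries. Klf9 had a ratio of 0.32, the receptor gene Nr3c1 0.38 and Sult1a1 -0.30. In running over sedentary the list median was 0.06.

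Circadian clock genes had a median of 0.36, with 7 of 13 members higher and 2 lower. In this loop Clock and Arntl drive the Per, Cry and Nr1d genes, whose products then repress that drive. Cry2 was at 73.6 CPM untreated, 21.6 sedentary and 19.1 running (1.77), Per3 at 105, 45.4 and 37.6 (1.21), and the output gene Hlf at 11.7, 4.49 and 2.19 (1.37). The Hlf ratio was 0.47 after barcodes were thinned to 1000 UMIs. Per1 had a ratio of 0.72, Bhlhe40 had a ratio of 0.80 and Rora, which activates Arntl, one of 0.99. Cry1 went the other way, at 6.29, 15.1 and 8.94 CPM (-1.25), with Arntl at 16.6, 21.9 and 18.7 (-0.40). Clock (-0.09), Tef (-0.08) and Dbp (0.15) differed by less than 25%. Cry2 had ratios of 2.00 in arterial, 1.87 in venous and 1.62 in remaining barcodes, and Per3 1.28, 1.42 and 1.21. The running over sedentary median of the list was -0.27, on the opposite side of 0.

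Promoter sequences are shown for Cry1 and Per1, clock members that differed in opposite directions, and for Sgk1, a hormone target, because each holds the recognition motif of its list. They run from 250 bases before to 50 after the RefSeq start (GRCm38.p6, on the gene's own strand), with the motif in capitals. The E-box CACGTG, which the Clock and Arntl proteins bind, is in 7.15% of 32851 such promoters and in those of Cry1, Per1 and Tef among the 12 clock members matched. The glucocorticoid element, searched as GAACA and TGTTC with any 3 bases between them, is in 0.0578% of promoters and, among the 11 hormone targets matched, in that of Sgk1. Both motifs read the same on the 2 strands. A match describes the letters only, since E-boxes stood before genes of either direction.
Cry1 promoter, chr10:85185005-85185304, minus strand: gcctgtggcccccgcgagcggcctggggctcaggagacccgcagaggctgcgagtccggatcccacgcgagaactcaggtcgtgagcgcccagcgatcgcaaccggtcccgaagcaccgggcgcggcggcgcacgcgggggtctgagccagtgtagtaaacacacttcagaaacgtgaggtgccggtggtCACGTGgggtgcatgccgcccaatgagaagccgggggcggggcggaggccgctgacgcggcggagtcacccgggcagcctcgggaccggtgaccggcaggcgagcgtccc
Per1 promoter, chr11:69098699-69098998, plus strand: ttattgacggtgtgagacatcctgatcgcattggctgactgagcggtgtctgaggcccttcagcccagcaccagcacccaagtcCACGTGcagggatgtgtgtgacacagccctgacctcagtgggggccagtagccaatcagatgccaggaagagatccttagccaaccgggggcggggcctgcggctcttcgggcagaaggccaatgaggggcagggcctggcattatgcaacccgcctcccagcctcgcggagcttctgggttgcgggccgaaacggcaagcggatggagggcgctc
Sgk1 promoter, chr10:21993640-21993939, plus strand: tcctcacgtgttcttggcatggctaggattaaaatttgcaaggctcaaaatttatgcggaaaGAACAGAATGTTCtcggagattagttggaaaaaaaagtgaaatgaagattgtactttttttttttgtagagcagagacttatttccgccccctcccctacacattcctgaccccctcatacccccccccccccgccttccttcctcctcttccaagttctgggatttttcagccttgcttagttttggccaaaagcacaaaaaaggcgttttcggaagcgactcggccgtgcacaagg

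**Figure D4:**
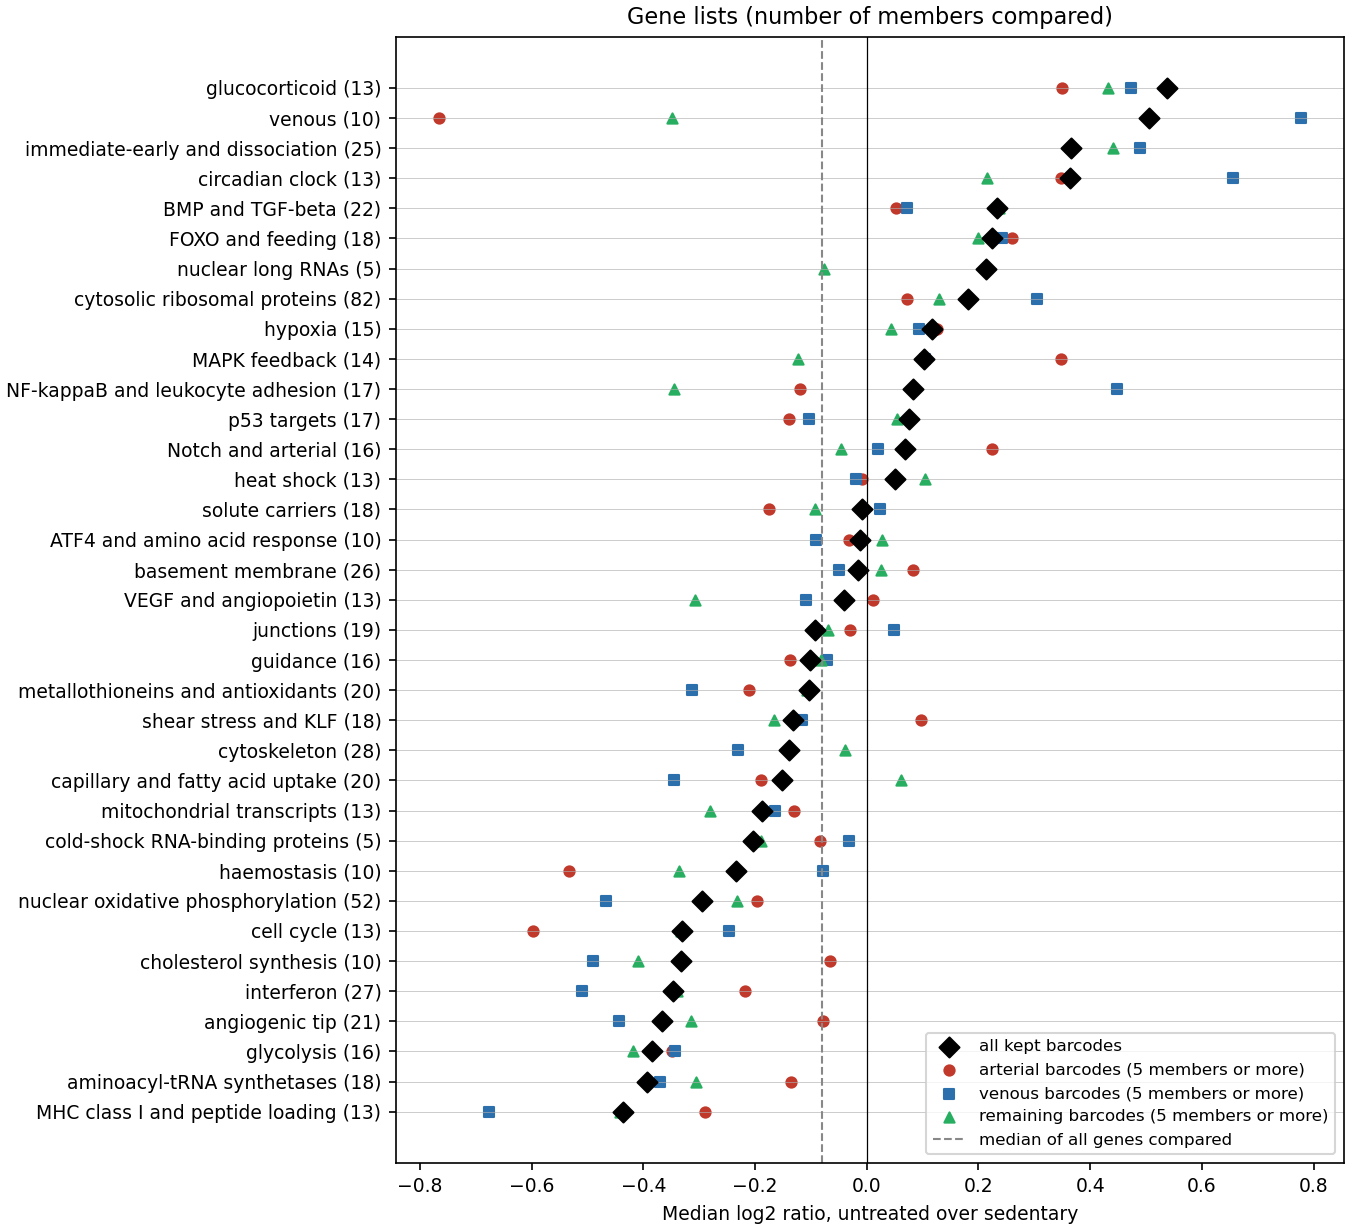
Median log2 ratio of untreated over sedentary for each list with at least 5 compared members, over all kept barcodes (black diamonds) and within arterial, venous and remaining barcodes (members with at least 20 UMIs in the class), with the number of members in brackets and the median of all genes as a dashed line at -0.08. The medians over all kept barcodes run from 0.54 for the glucocorticoid list to -0.44 for class I antigens. Those within classes reach 0.78 in venous and -0.77 in arterial barcodes, both for the venous list.

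Immediate-early genes, which are switched on within minutes by signals and by tissue digestion, had a median of 0.37, with 15 of 25 members higher and 2 lower. Besides Fos and Jun, the small GTPase gene Rhob was at 831 CPM untreated, 375 sedentary and 514 running (1.15), Zfp36 at 959, 538 and 717 (0.83), and Egr1 at 1436, 1014 and 1607 (0.50). Arc (-0.79) and Maff (-0.38) were lower. The running library was as far above the sedentary one, with a median of 0.41, so this list did not set the untreated library apart from both. Heat shock genes had a median of 0.05 and 6 of 13 higher, led by the co-chaperone genes Dnajb1 at 263, 123 and 179 CPM (1.10) and Dnajb4 (1.09), with Hspb1 at -0.48. Genes of the ATF4 and amino acid response had a median of -0.01. The exception on that list was Ddit4, which encodes the mTOR inhibitor REDD1 and is on the hypoxia list too, at 465, 164 and 144 CPM (1.5), while Asns was at -0.64, Shmt2 at -0.35 and Trib3 at 0.42. The hypoxia list had a median of 0.12 with 4 of 15 members higher and 4 lower, among them Apln (-1.0), Ankrd37 (-0.98) and Arnt (0.56).

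The venous list had a median of 0.51, with 5 of 10 members higher and 1 lower. Selp was at 119 CPM untreated, 43.6 sedentary and 79.6 running (1.44), Cpe at 58.9, 23.5 and 39.1 (1.32), and Nrp2, a co-receptor gene for semaphorins and VEGF-C, at 474, 151 and 185 (1.65). Without barcodes with an erythrocyte UMI the Selp ratio was 3.09 and the list median 1.10. That filter left out 2586 sedentary but 161 untreated barcodes, and its effect on the mix of cells was not tested. Aplnr, the apelin receptor gene, was at 213, 430 and 370 CPM (-1.02). The list median was 0.78 within venous, -0.35 within remaining and -0.77 within arterial barcodes (7 members), so the higher median over all barcodes was not shared by the classes. With the untreated classes weighted to the UMI shares of the sedentary classes it was 0.30. The part of the venous barcode share (20.4% against 15.9%) in the list median was not tested further. The NF-kappaB and adhesion list had a median of 0.08 over all barcodes, 0.45 in venous and -0.35 in remaining ones, with 7 of 17 higher and 6 lower. Its extremes were Tnfrsf1b (2.43), Selp, Nfkb2 (-0.76) and Rela (-0.66).

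Vessel guidance genes had a median of -0.10 but a mean of 0.21, because 4 of 16 members were at least 2-fold higher. Besides Unc5b and Nrp2, these were Epha4, an ephrin receptor gene, at 175 CPM untreated, 58.0 sedentary and 55.2 running (1.59), and the netrin gene Ntn1 at 13.6, 6.11 and 10.1 (1.15). Robo4 (-0.62) and Sema3f (-0.58) were lower. The Notch and arterial list had a median of 0.07, with the ligand gene Dll4 at 110, 183 and 163 CPM (-0.74), the receptor gene Notch4 at 77.4, 137 and 91.5 (-0.82), and the ligand gene Jag1 at 83.2, 49.8 and 41.2 (0.74). Of 13 genes of VEGF and angiopoietin signalling, with a median of -0.04, the receptor genes Tie1 (-0.72) and Kdr (-0.58; 666, 998 and 936 CPM) were lower and Flt1 (0.33) and Vegfb (0.64) higher. The angiogenic tip list had a median of -0.37, with 11 of 21 members lower and 0 higher. Hspg2, the gene of the basement membrane proteoglycan perlecan, was at 266, 559 and 463 CPM (-1.07), Apln at 8.06, 16.2 and 16.7 (-1.0), Mcam at 0.20 and Ackr3 at 0.14.

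BMP and TGF-beta genes had a median of 0.23, with 8 of 22 higher and 4 lower. The ligand gene Tgfb1 was at 156 CPM untreated, 276 sedentary and 339 running (-0.82) and the co-receptor gene Eng at 554, 931 and 810 (-0.75), whereas Tgfb2 (0.84), Tgfbr3 (0.84) and the target gene Id1, at 1299, 763 and 950.2 CPM (0.77), were higher. Of 26 basement membrane genes (median -0.02), Mgp was at 184, 49.4 and 75.8 CPM (1.89), the protease inhibitor genes Timp2 and Timp3 at 1.00 and 0.98, and Lama5 at -0.54. FOXO and feeding genes had a median of 0.22, with Igfbp5 at 79.3, 21.9 and 105 CPM (1.85), Klf15 at 13.5, 5.21 and 3.04 (1.36) and Angptl4 at -0.23. For Igfbp5 the running value stood above both others. A single barcode held 21.3% of the sedentary Igfbp5 UMIs and 0.747% of sedentary barcodes had one, and its ratio was 1.04 after thinning, 2.57 with at most 5% mitochondrial UMIs and 3.26 without barcodes with an erythrocyte UMI. In those last barcodes, from which 2586 sedentary but 161 untreated ones were left out, the Mgp ratio was 2.92.

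Genes responding to shear stress had a median of -0.13, with 4 of 18 higher and 6 lower, in which the endothelin-1 gene Edn1 was at 425 CPM untreated, 225 sedentary and 135 running (0.91). Klf4 was at 1566, 1051 and 1183 (0.58) and Klf2 at 0.55, while Klf10 was at -0.58 and Nos3, the gene of endothelial nitric oxide synthase, at 83.1, 112 and 101 CPM (-0.42). Capillary and fatty acid uptake genes had a median of -0.15, with Btnl9 at 1.01, Fabp5 at 0.56, Cd300lg at -0.81 and Gpihbp1, whose protein carries lipoprotein lipase across the capillary, at 1073, 1787 and 1681 CPM (-0.74). Cd36 was at 0.29 and Lpl at 0.26. Haemostasis genes had a median of -0.23, with Thbd at -0.46, Anxa2 at -0.60, F2r at -0.61 and Entpd1 at 0.54.

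The lists of energy metabolism, tRNA charging and cholesterol synthesis had medians below that of all genes, and the ribosomal proteins one above it. Of 52 nuclear genes of oxidative phosphorylation, with a median of -0.29, 21 were lower and 0 higher, none past 2-fold. Cox6a1 was at 366 CPM untreated, 612 sedentary and 569 running (-0.74) and Uqcrc1 at -0.70, while Uqcrh was at 0.22 and Ndufa7 at 0.15. Glycolysis had a median of -0.39, with 9 of 16 lower, among them Pfkp (-0.97), Eno1 at 120, 200 and 190 CPM (-0.74) and Slc16a1 (-1.10), and with the regulator gene Pfkfb3 at 61.8, 39.7 and 43.0 (0.64). Aminoacyl-tRNA synthetases, which load amino acids onto tRNAs, had a median of -0.39, with 10 of 18 lower, from Cars (-0.95) and Mars (-0.93) to Eprs (0.42) and Iars (0.53). Cholesterol synthesis genes had a median of -0.33, with 5 of 10 lower, led by Idi1 (-0.94) and Srebf2 (-0.75), and with Fdft1 at -0.14. Of 82 ribosomal protein genes, with a median of 0.18, 22 were higher and 1 lower, from Rps21 (0.66) and Rpl5 (0.65) to Rpl7l1 (-0.30) and Rps4l (-0.63). When the median ratio of genes of like GC content was subtracted, the medians were -0.14 for oxidative phosphorylation, -0.10 for glycolysis and -0.25 for the synthetases. The median of all genes was then 0.

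The lists of antigen presentation and interferon response also had medians below that of all genes. The class I list had a median of -0.44, with 7 of 13 members lower and 0 higher. B2m, the light chain gene, was at 1621 CPM untreated, 2313 sedentary and 2537 running (-0.51), H2-K1 at 735, 994 and 1121 (-0.44) and the peptide transporter gene Tap1 at 33.4, 57.5 and 62.8 (-0.78). Reads may be split between the close copies H2-Q6 (-1.12) and H2-Q7 (-0.95), and H2-T23 was at 0.10. With GC content taken into account the median was -0.20, beside 0 for all genes. The interferon list had a median of -0.35, with 14 of 27 lower and 2 higher. Ifitm2 was at 941, 1589 and 1408 CPM (-0.76), Bst2 at 490, 801 and 573 (-0.71) and Irf1 at 165, 269 and 329 (-0.71), whereas Trim25, also on this list, and Rsad2 at 245, 183 and 160 CPM (0.42) were higher.

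Cytoskeletal genes differed in both directions. The cytoskeleton list had a median of -0.14, with 5 of 28 higher and 10 lower: Net1 and Rhob were at least 2-fold higher, and Myl6 was at 880 CPM untreated, 1546 sedentary and 1395 running (-0.81) and Arhgap18 at -0.78. Tubulins were looked at after the values were seen. All 10 compared members had ratios below 0 and 6 were at least 2-fold lower, with a median of -1.08 and a summed level of 979.9 CPM untreated, 1732 sedentary and 1607 running. Tuba1a was at 193, 426 and 339 CPM (-1.14), Tuba1b at 158, 346 and 318 (-1.13) and Tubb4b at 132, 269 and 271 (-1.03), with Tubb2a at -0.23. For cell cycle genes the median was -0.33, with Ckap2 at 3.52, 18.5 and 6.75 CPM (-2.37), Ccnd1 at 69.7, 125 and 153 (-0.84), Cdk6 at 1.05 and Cdkn1b at 0.52.

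The other lists lay near the median of all genes. Junction genes had a median of -0.09, with Jam3 at 65.5 CPM untreated, 126 sedentary and 144 running (-0.94) and Esam at -0.65, and with Tjp1 at 310, 167 and 171 (0.89) and Cgnl1 at 0.69. Solute carriers had a median of -0.01 and a mean of -0.20, with 2 of 18 higher and 6 lower, from Slc1a1 (-1.58) and Slc16a1 (-1.10) to Slc2a1 (0.39) and Slco2a1 (0.97). Feedback regulators of MAPK signalling had a median of 0.10, from Dusp5 (-0.77) and Spred1 (-0.51) to Spry1 (0.69) and Spry2 (1.06). The p53 target list had a median of 0.08, with Aen at -1.10, Ccng1 at -0.61, Gadd45a at 0.69 and Trp53inp1 at 0.87. The metallothionein and antioxidant list had a median of -0.10, with Gstm1 at -0.67, Prdx1 at -0.58, Gclm at 0.14 and Mt2 at 0.58. Of 5 cold-shock RNA-binding protein genes (median -0.20), Cirbp was at 122, 193 and 207 CPM (-0.66). For the ATF4, VEGF, basement membrane and p53 lists the mean (0.05, 0.02, 0.08 and -0.02) had the opposite sign of the median. Of all lists, the medians of 13 that lay near 0 changed sign under at least 1 alternative, among them heat shock, NF-kappaB, ATF4, VEGF, basement membrane, guidance and the junction, solute carrier, MAPK, p53, antioxidant, cold-shock and sex-linked lists, so their medians are given as values only. Some genes with a ratio past 2-fold were short of it under an alternative: Spry2 (0.32), Slc16a1 (-0.55), Aplnr (-0.87) and Dnajb1 (0.997) after thinning, Hspg2 (-0.77) and H2-Q6 (-0.88) with GC bins subtracted, Cdk6 (0.82) with length bins subtracted, Zbtb16 (0.82) and Dnajb4 (0.89) without barcodes with an erythrocyte UMI, Btnl9 (0.87) with equal weight per barcode, and Aen (-0.96) with at least 500 genes per barcode. Without those erythrocyte barcodes Apln was at -1.68. The 4 sex-linked genes compared had a median of -0.09 and the substrain list was Nnt alone.

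Of 5 long RNAs (median 0.21), Malat1 was higher while Neat1, the RNA of nuclear paraspeckles, was at 333 CPM untreated, 586 sedentary and 565 running (-0.81), and Meg3 was at 14.4, 5.57 and 26.7 (1.35; 2.92 without barcodes with non-endothelial markers). The 13 mitochondrial mRNAs had a median of -0.19 and a mean of 0.06. Some pairs share bases of 1 transcript: mt-Atp8 was at 430, 162 and 126 CPM (1.41) and mt-Atp6, which overlaps it by 43 bases, at 5442, 7126 and 6820 (-0.39), and mt-Nd4l was at 282, 129 and 152 (1.12) against mt-Nd4 (-0.17), which overlaps it by 7 bases. Within each pair the ratios had opposite signs. The mitochondrial tRNA gene mt-Tc had 48 untreated, 749 sedentary and 317 running UMIs (-4.46). Among 9 ribosomal protein pseudogenes, read after the values were seen, Rpl13a-ps1 was at 91.8, 17.4 and 20.8 CPM (2.39) beside its parent Rpl13a (-0.23), and Rpl7a-ps5 at 76.2, 16.3 and 14.0 (2.22) beside Rpl7a (0.36). Reads of such copies can be assigned to either gene, so these ratios are uncertain.

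The called genes also differed from the rest in kind, base composition and length. Protein-coding genes made up 84.4% of the higher, 83.2% of the lower and 95.1% of the other genes, and long non-coding genes 11.7%, 12.4% and 4.22%. The median GC content of their transcripts was 48.3% for higher, 53.1% for lower and 49.2% for other genes, and the median length 4038, 2573 and 3383 bases. Over all genes in 5 equal groups by GC content, the median log2 ratio was 0.04 in the lowest group and -0.28 in the highest, against 0.02 and -0.06 for running over sedentary. By length it ran from -0.19 in the shortest to 0.15 in the longest transcripts. The lower ratios at high GC content were present in each class: the highest group had medians of -0.24 in arterial, -0.29 in venous and -0.31 in remaining barcodes. With the median of 20 GC bins subtracted, added after the data were seen, 316 genes were higher and 72 lower in place of 256 and 137. Whether composition and length act through the library preparation was not tested.

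**Figure D5:**
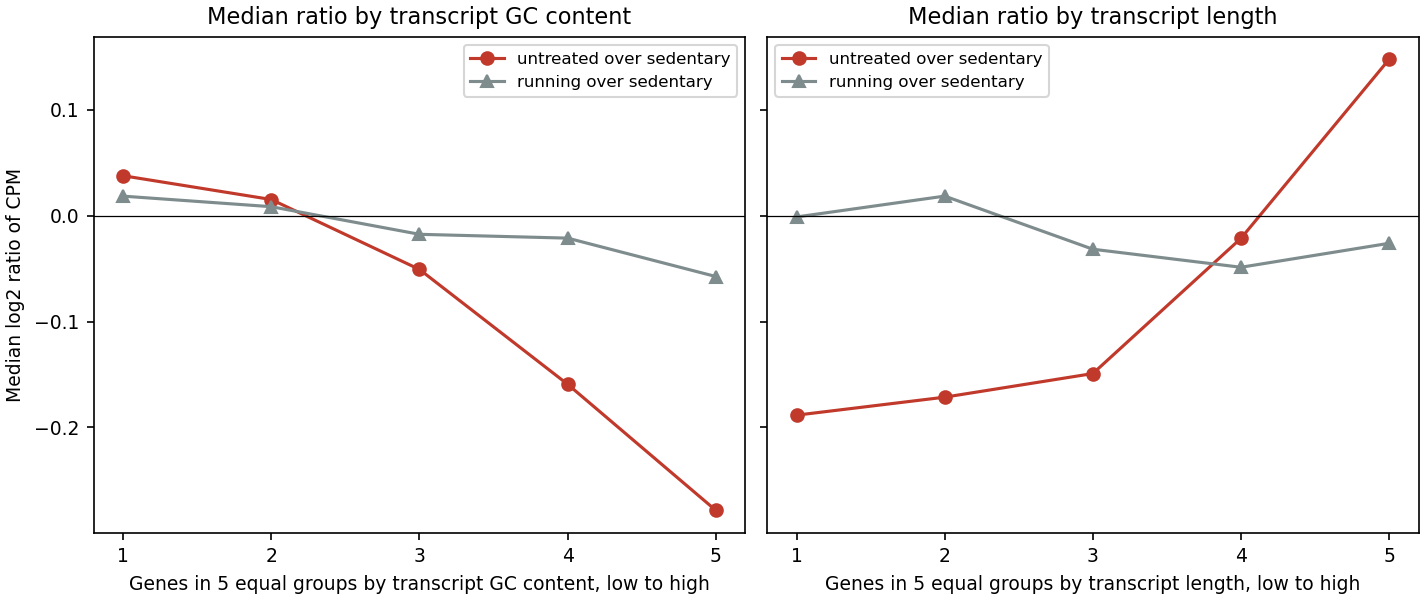
Median log2 ratio of CPM for the compared genes in 5 equal groups by GC content (left) and length (right) of their transcript, for untreated over sedentary (red) and running over sedentary (grey). The red medians run from 0.04 to -0.28 with GC content and from -0.19 to 0.15 with length.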

How the data were processed

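The authors deposited unnormalized UMI counts for each gene in each barcode, made with Cell Ranger 2.0.2 on GRCm38.p5 per the submitters' processing notes, and each of the 3 matrices had 41605 gene rows. The gene annotation used for them is not given in the sources used here. How the authors called cells is likewise not given. Doublets were not called, and barcodes with UMIs of 2 vessel kinds were kept apart. Counts were summed per library, scaled to CPM and compared as log2 ratios with a prior count of 0.5, with exact Poisson-ratio intervals. The interval of a difference adds the 2 intervals' arms in quadrature. All cover counting error only.

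The members and lists were chosen with earlier results of these data known. Genes were named among those with at least 200 UMIs over both libraries, without mitochondrial and ribosomal protein genes, haemoglobins, numbered models, class genes and non-endothelial markers: the 12 highest and 12 lowest ratios, the 6 widest CPM differences each way, the 2 highest and 2 lowest of each list, and the 5 highest and 5 lowest differences between classes. Some of these genes are not reported here. Others were named after their values were seen. Positions come from GENCODE M21 (GRCm38), in which 170 genes had no match, and promoters from RefSeq. Transcript GC content and length were those of GENCODE transcripts. Alternatives covered scaling (edgeR 4.0.16, TMM), thinning, barcode filters, weighting, count minimums and class rules. Scripts used Python 3.11.15 and scipy 1.17.1 and were tested on simulated counts.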

Additional observations from a re-analysis of the deposited data

Results flagged for a closer look

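Among the genes named for class differences, Emp2, Mt2 and Rcbtb2 had untreated over sedentary ratios of opposite sign in arterial or venous barcodes and in the remaining ones, with intervals that each lay on 1 side of 0. Arterial and venous barcodes were not set against each other. The difference between classes was not tested, since each class holds 1 library a side. Emp2, which encodes a small membrane protein, was at 97.8 CPM untreated and 67.2 sedentary in arterial barcodes, 95.7 and 56.2 in venous barcodes, and 10.6 and 22.6 in the remaining ones, so that the log2 ratio differed from that of the remaining barcodes by 1.62 in arterial and 1.85 in venous barcodes. Mt2, a metallothionein gene, was at 18.3 and 30.7 CPM in venous and 29.4 and 12.4 in remaining barcodes, a difference of -1.98. Mt2 had a UMI in 1.2% of untreated and 0.896% of sedentary barcodes, and a single barcode held 12.2% and 19.1% of its UMIs. Rcbtb2 was at 13.9 and 34.9 CPM in venous and 27.8 and 18.6 in remaining barcodes, a difference of -1.88. These genes were picked as extremes of the 5440 arterial and 6558 venous differences. Classes depend on depth and on the rule's own genes, and both depth and Gja5 differed between the libraries. The part of class assignment in these opposite signs was not tested beyond alternative class rules and thinning.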

How the results depend on the processing

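No paired analysis was possible because each group had 1 library. The 256 higher and 137 lower genes became 3249 and 2158 with no minimum count, 98 and 31 with at least 500 UMIs per gene, and 120 and 35 where the whole interval had to lie past 2-fold. The lower count was 209 when each barcode had the same weight, 269 without barcodes with an erythrocyte UMI, 72 with GC bins subtracted and 91 with length bins subtracted. Of 302 calls with at least 20 UMIs in each class, 263 were shared by the classes. The shared calls were 151 of 175 after thinning and 164 of 302 with a limit of 2-fold in each class. With at least 50 UMIs per class they were 153 of 161, a larger fraction than 263 of 302. The arterial share difference was 2.62 points after thinning, 3.38 without Gja5 and Nr2f2 and 0.383 with both, and the venous one 2.09 after thinning, 2.77 with at least 500 genes, 6.41 with 2 UMIs for a class and 0.564 with both changes. No list median at least 25% from equality changed sign. Among gene ratios that far out, and among class differences, none whose counting interval left out 0 changed sign. The medians of 13 lists near 0 changed sign, and so did the ratios of Shmt2 (-0.35, and 0.17 without barcodes with an erythrocyte UMI) and Kdm5d (-0.37, and 0.19 after thinning), whose intervals included 0. Some ratios nearer to equality changed sign although their intervals left out 0, among them Gja4 (-0.26), Sema3g (0.30) and Ddx3y (0.18). Of 481 list medians under alternatives, 52 lay outside the median lower and median upper bounds of their members' counting intervals. Of 2158 gene ratios, in which Nnt is repeated, 429 lay outside the gene's own counting interval. The erythrocyte, GC, length and Gja5 and Nr2f2 alternatives were chosen after seeing the data. Causes were not tested. With 1 library a side, differences between animals, days and preparations cannot be separated from the groups, and genes under about 100 UMIs carry wide intervals.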
